A study of Mus musculus with 4 samples.

Results

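The barcodes described here were gated as natural killer (NK) cells from whole mouse brain. They came from droplet single-cell RNA sequencing, in which each barcode stands for a droplet and each UMI for a captured mRNA molecule. Of the 51 found, 8 carried markers of another cell class. Of the other 43, 18 had a high level of markers of type 1 innate lymphoid cells, so the name NK cells is that of the gate. Members were selected on measured counts. A barcode was taken if it held at least 1000 UMIs, at most 15.8% of them from mitochondrial (mt-) genes, at least 4 UMIs of Ncr1, Klrb1c, Klre1 and Gzma together, at most 1 UMI of Cd3d, Cd3e and Cd3g together, and fewer than 30 UMIs of C1qa, C1qb and C1qc per 10,000. This rule found 51 barcodes among 30941 that met the depth and mt- limits, of 36876 barcodes in all, which is 0.165% (exact 95% binomial interval 0.123% to 0.217%, counting error only).

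The brains came from 4 male C57BL/6J mice, 1 for each combination of age and diet. The adult mice began the diets at 3 to 4 months of age and the aged mice at 23 to 24 months, and within each age 1 mouse ate the low fiber diet with 0% inulin and the other the high fiber diet with 5% inulin. The brains were taken after the weeks on these diets, so the mice were then older than at the start. The diets of all 4 mice held 1% cellulose, the mice carried no transgene named in the labels, and every brain was perfused, dissociated and depleted of debris, red cells, myelin and dead cells, so the shares below are shares of what survived those steps. With 2 mice for each age or diet, an exact permutation test over mice cannot give a p below 0.333.

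NK cells are innate lymphocytes that kill infected or stressed cells without a rearranged antigen receptor. A balance of activating receptors (such as the NKp46 and NKG2D proteins) and inhibitory receptors (such as the Ly49 and NKG2A families, which read MHC class I) decides whether they release perforin and granzymes, and they also secrete interferon gamma and chemokines. Their nearest relatives are type 1 innate lymphoid cells (ILC1), which share the transcription factor T-bet and most of the receptors, usually lack Eomes and the integrin CD49b (Itga2), and carry the integrin CD49a (Itga1) and the chemokine receptor Cxcr6. In the healthy brain, such cells are rare and sit mainly in the meninges, the choroid plexus and around vessels.

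For a gate gene that most members shared (Ncr1) and 4 genes whose UMIs lay in only part of the members, the 250 bases before the annotated transcription start are shown (RefSeq sequences, build GRCm38.p6, 5′ to 3′ on the gene's own strand): Ncr1, on the + strand at chr7:4337465-4337714, encodes the receptor NKp46; Gzma, on the - strand at chr13:113100982-113101231, encodes granzyme A; Cxcr6, on the + strand at chr9:123806227-123806476, encodes a chemokine receptor; and Klra8 and Klra4, on the - strand at chr6:130129899-130130148 and chr6:130067272-130067521, encode the Ly49H and Ly49D activating receptors. Capitals mark a match to the core motif of RUNX factors, TGTGGT, or its reverse complement ACCACA.
Ncr1: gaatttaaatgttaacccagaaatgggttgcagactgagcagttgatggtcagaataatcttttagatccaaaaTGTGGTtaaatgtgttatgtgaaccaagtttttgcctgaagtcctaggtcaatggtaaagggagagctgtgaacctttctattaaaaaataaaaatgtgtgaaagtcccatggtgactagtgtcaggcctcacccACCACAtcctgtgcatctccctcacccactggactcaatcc
Gzma: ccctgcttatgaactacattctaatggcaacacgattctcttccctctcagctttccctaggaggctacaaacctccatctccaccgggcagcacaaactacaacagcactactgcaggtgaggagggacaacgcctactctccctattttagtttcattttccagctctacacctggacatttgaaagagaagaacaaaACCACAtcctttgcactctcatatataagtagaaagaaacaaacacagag
Cxcr6: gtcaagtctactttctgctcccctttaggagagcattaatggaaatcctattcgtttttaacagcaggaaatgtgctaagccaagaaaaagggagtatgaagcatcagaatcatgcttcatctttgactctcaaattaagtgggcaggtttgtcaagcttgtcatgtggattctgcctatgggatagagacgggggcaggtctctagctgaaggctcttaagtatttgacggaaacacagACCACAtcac
Klra8: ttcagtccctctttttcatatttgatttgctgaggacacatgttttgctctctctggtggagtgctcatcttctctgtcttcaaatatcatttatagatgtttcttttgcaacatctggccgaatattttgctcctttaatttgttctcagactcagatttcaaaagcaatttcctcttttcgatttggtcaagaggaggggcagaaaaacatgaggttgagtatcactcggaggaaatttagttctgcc
Klra4: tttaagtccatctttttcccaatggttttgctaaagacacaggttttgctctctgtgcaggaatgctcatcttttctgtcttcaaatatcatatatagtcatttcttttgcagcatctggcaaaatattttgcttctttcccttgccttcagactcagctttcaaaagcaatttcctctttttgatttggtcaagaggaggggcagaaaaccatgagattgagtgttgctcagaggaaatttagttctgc
Ncr1 held 2 matches, which began 176 and 41 bases before the start. Gzma held 1 match at 50 bases and Cxcr6 1 at 10 bases before it. Both Ly49 windows held none, and they were identical at 212 of 249 aligned bases (85.1%, without gaps). Of the 24 gate and other NK markers, 19 had a window in the RefSeq table, and the RUNX letters were present in 10 of these (52.6%), namely Ncr1, Klrb1c, Klre1, Gzma, Nkg7, Klrk1, Klrc1, Prf1, Gzmb and Xcl1, against 14.2% of all 27025 genes in the table (3832). The T-box core GGTGTGA (reverse complement TCACACC) was present in 2 of the 19 (10.5%), Nkg7 and Xcl1, against 3.31% of all genes, and the STAT motif TTCNNNGAA in 2 of the 19 (10.5%), Nkg7 and Klra7, against 7.18%. These are letter matches in windows of genes that were chosen as markers, without a test, and binding was not measured.

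The members came as 10 barcodes from the adult mouse on 0% inulin, 16 from the adult mouse on 5%, 5 from the aged mouse on 0% and 20 from the aged mouse on 5%. They held 93574, 113080, 55889 and 168181 UMIs in that order, in libraries of 115814810, 111648775, 88248117 and 108131200 UMIs. A member held between 1236 and 53650 UMIs with a median of 5745, and a median of 2178 genes with at least 1 UMI, and the median share of mt- UMIs was 2.89%. The 4 gate genes gave 5 to 256 UMIs per member, with a median of 20. The gate had few borderline cases: 8 barcodes with otherwise fitting values held 2 UMIs of the gate genes, 1 held 3, none held 4 and 1 held 5. A further 29 barcodes passed the gate genes but held 2 or more Cd3 UMIs and were not members, and 2 had too many C1q UMIs. Every member held a UMI of Ncr1, Klrb1c or Klre1, but some reached 4 gate UMIs only with Gzma. For example, 1 member of the adult mouse on 0% inulin held 1 Klre1 and 7 Gzma UMIs. Between the 4 libraries 192 barcode sequences recurred, and 1 of them belonged to a member.

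The gate genes themselves are given as a description. Ncr1 had a UMI in 47 of 51 members, at 470, 769, 483 and 630 CPM (UMIs of a gene per 1000000 summed UMIs of a mouse's members) in the adult 0%, adult 5%, aged 0% and aged 5% mouse, and at 0.00 CPM in T cells. Klrb1c, which encodes the NK1.1 antigen, had a UMI in 45, and Klre1, an NK lectin-like receptor, in 42. Gzma had a UMI in only 31 members but reached 5172, 2980, 6549 and 2896 CPM, so its molecules were concentrated in part of the members. The T cells used for comparison were gated with the same limits, at least 2 Cd3 UMIs and fewer than 4 gate UMIs, and numbered 641. Their low level of the gate genes thus follows in part from their own gate.

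Genes outside the rule bore out the lymphocyte identity. Nkg7, a granule membrane protein, and Fcer1g, the adapter that carries NKp46 signals, had UMIs in 51 of 51 members. Klrk1 (the NKG2D receptor) had UMIs in 49, Ccl5 (a chemokine) and the kinase Txk in 48, and Klrd1 (CD94), the interleukin receptor chain Il2rb and the adapter Tyrobp in 47 each. Ccl5 was the most abundant of the NK markers at 6765, 5041, 7658 and 7468 CPM, and its levels in the 4 mice lay close together. Tyrobp averaged 1459 ± 267 CPM (SD, n = 4 mice) in members and 126 CPM in T cells, and Fcer1g 1525 ± 446 against 117 CPM. Nkg7 and Ccl5 separated the classes less, at 1637 ± 305 and 6733 ± 1192 CPM in members against means of 961 and 3973 CPM in T cells.

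The granule and transcription factor genes were seen in part of the members. Prf1 (perforin) had UMIs in 34 members, Gzmb in 24, Tbx21 (T-bet) in 30, Eomes in 20 and Itga2 in 16. When each barcode was thinned to 1000 UMIs, Nkg7 was detected in 80.4% of members, 58.5% of T cells and 0.00% of 1600 endothelial barcodes, and Klrd1 in 56.9%, 10.8% and 0.125%. Median depth was 5745 UMIs in members and between 6350 and 7162 UMIs in the endothelial barcodes of the 4 mice. Ttr, the transthyretin gene of the choroid plexus, behaved differently, with UMIs in 51 of 51 members and, after thinning, in 94.1% of members, 96.1% of T cells and 94.9% of endothelial barcodes.

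The defining transcripts of other lymphocytes were near 0. Cd4, Cd8a, Cd8b1, Cd5, Cd6 and Themis had no UMI in any member and Trac had 1, while the constant regions of the T cell receptor beta chain, which NK cells can transcribe without rearrangement, were present: the list of 13 T cell markers had 7 genes with a UMI, with Trbc2 the most abundant. Of the ILC2 markers Il1rl1, Areg, Il5 and Il13 were at 0 UMIs. A count of 0 among 51 members allows a share of cells with a UMI of up to 5.88%.

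**Figure D1:**
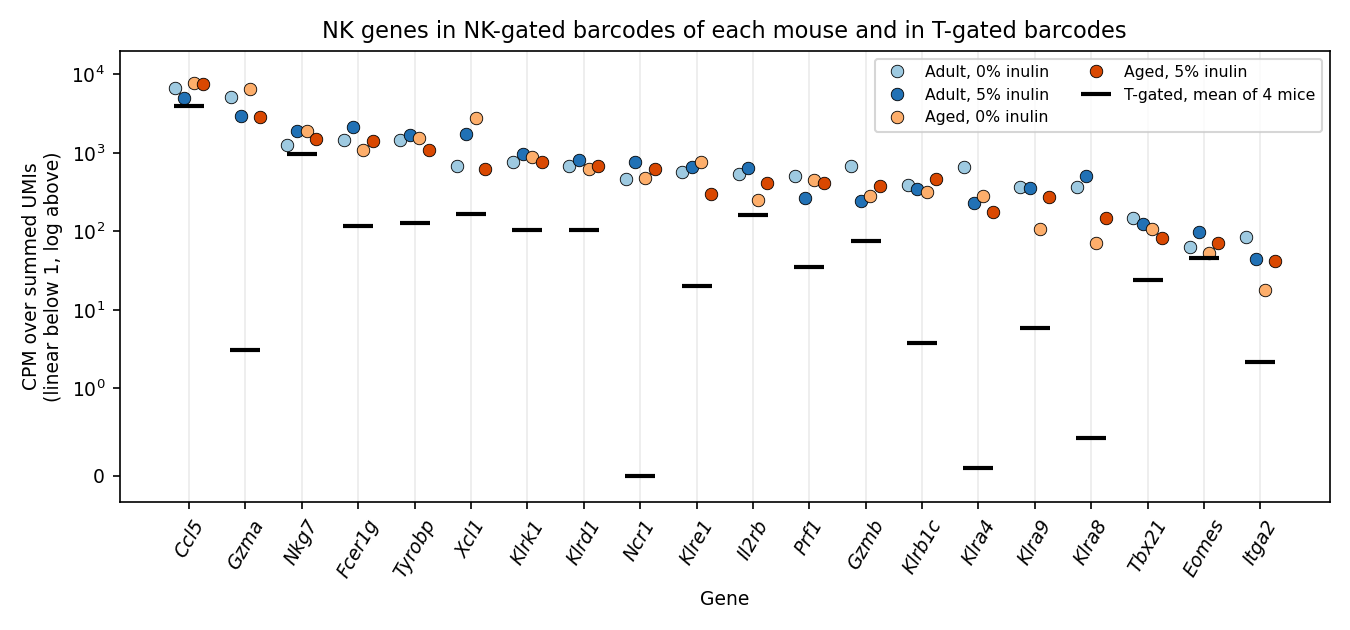
CPM over the summed UMIs of NK-gated barcodes for 20 NK genes (horizontal axis) in the 4 mice (coloured points), with the mean of the 4 mice in T-gated barcodes as a black bar, on an axis that is linear below 1 and logarithmic above. Ncr1, Gzma, Klre1 and Klrb1c are gate genes, sought in members and limited in T cells, so their separation was set in part by the gates. Ncr1 stood at 470 to 769 CPM in the NK-gated barcodes and at 0.00 in T cells, while the bars of Ccl5 and Nkg7 lay close to the points.

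Of the 20 genes that led over T cells, 16 were not gate genes, and 9 of these lay on chromosome 6, where the NK gene complex is, beside 5.18% of the 7118 genes outside the gate seen in at least 10% of members. With 10 CPM added to both sides, the highest folds of mean CPM outside the gate genes were 34.6 for Klra4, 27.0 for Klra8, 17.8 for Klra9 (all of the Ly49 family), 13.4 for the inhibitory receptor Klrb1b, and 12.4 for Cma1, a mast cell type protease on chromosome 14. Rgs5, a gene of mural cells, was the last of the 20 and had UMIs in 9 members. Klra4 had UMIs in 13 members, Klra8 in 19 and Klra9 in 27, and Klra2, Klra5, Klra10 and Klra17 in none. The Ly49 genes are related copies, and the counting step may have split or dropped their reads, so the level of any single one is uncertain. This was not tested: the windows above cover only Klra8 and Klra4 upstream of the start, and no transcript sequences were compared. Against all other barcodes the leading genes outside the gate were Xcl1 at 113, Ccl5 at 76.6 and Klrk1 at 70.7 on the same scale. Among genes seen in at least 10% of T cells, those furthest below the T cell level outside the rule were S100a8, S100a9 and Igkc, which are granulocyte and B cell transcripts, and Cd8b1, which stood at 0.00 CPM in members against 447 CPM in T cells. T cell barcodes that carried another class were kept here. Their granulocyte list stood at 34085, 23754, 12312 and 51.9 CPM in the adult 0%, adult 5%, aged 0% and aged 5% mouse, where the values are of all T cells.

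Some members carried a further cell class. In 8 of the 51 barcodes at least 1 of 10 marker lists of other classes reached 50 UMIs per 10,000, a cut chosen after the values were seen. The lowest of these 8 stood at 94.0 per 10,000 and the highest of the remaining 43 at 24.3, so none lay near the cut on these lists. The choroid plexus list was not among the 10, and a UMI of Ttr was found in nearly all members, T cells and endothelial barcodes alike. The level of Ttr differed, with means of 3527 CPM in members and 35634 CPM in T cells. The choroid plexus list stood at 17.4 to 327 per 10,000 in the 43, with a median of 50.3, and at 50 or more in 22 of them. The 8 numbered 2, 3, 1 and 2 in the adult 0%, adult 5%, aged 0% and aged 5% mouse and held 42% of all member UMIs. Their median depth was 17654 UMIs against 5577 in the 43 unmixed members. Endothelial markers led in 5 of them (103 to 252 per 10,000), with mural markers beside them in 3, and astrocyte markers led in 3 (94.0, 106 and 175 per 10,000), all 3 from adult mice. One aged barcode on 5% inulin carried endothelial, myeloid (96.8 per 10,000) and B cell (54.9 per 10,000) markers together. Scrublet, a doublet caller, marked 3 of the 8 and none of the 43. Whether these barcodes were 2 cells in a droplet or cells stuck to each other was not tested. The fits and lists below name the members they rest on.

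**Figure D2:**
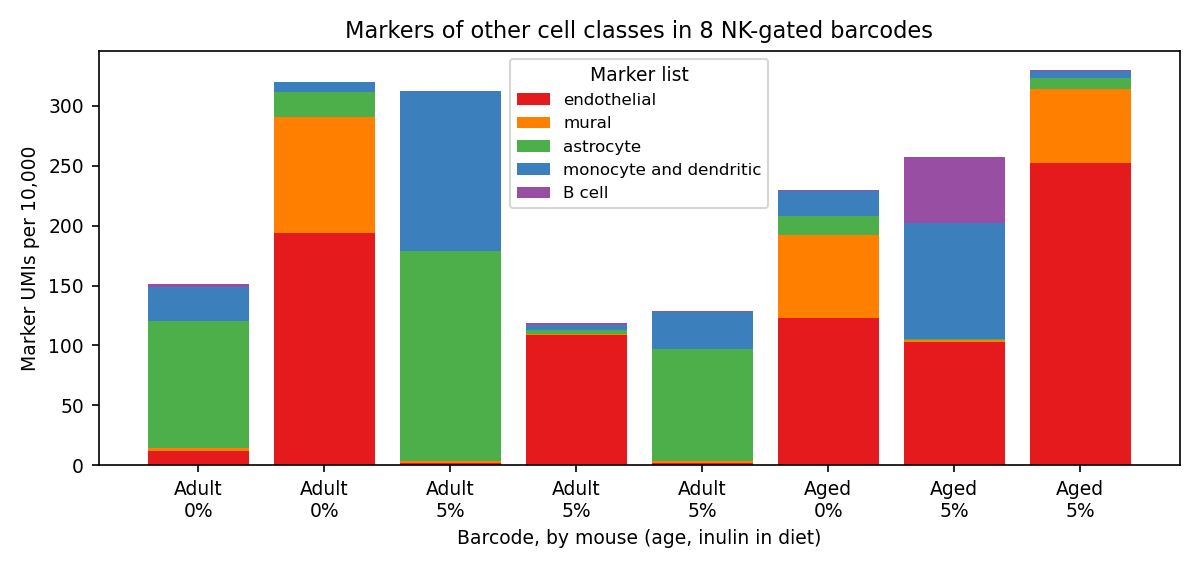
Summed marker UMIs per 10,000 (vertical axis) of 5 other cell classes, stacked, in each of the 8 NK-gated barcodes that carried another class, ordered by mouse. Astrocyte markers (green) led in 3 barcodes, all from adult mice, and endothelial markers (red) in the other 5.

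The 43 unmixed members fell into separate ranges of ILC1 marker level. The list of 9 ILC1 markers (Itga1, Tnfsf10, Cxcr6, Cd200r1, Il7r, Inpp4b, Tmem176a, Tmem176b and Zfp683) summed to at most 3.04 UMIs per 10,000 in 25 barcodes and to between 9.10 and 66.1 in 18, with no barcode between. The cut and the genes named for it were chosen after the values were seen, so what follows is a description without a test, and the ranges are ranges of a score, not cell types. Median depth was 5103 UMIs in the low range and 5676 in the high range. The spread differed, at 1236 to 18357 UMIs in the low and 4166 to 10317 in the high range. The shallowest barcodes were thus all in the low range, and the part of depth in the ranges was not tested.

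Single genes of the cytotoxic granule stood apart between the ranges, while the list as a whole lay near the share over all genes. Gzma, which is a gate gene and so helped to choose the members, had UMIs in 24 of its 25 barcodes and in 2 of the 18 of the high range, at 9930 CPM over the pooled UMIs of the low range and 56.5 CPM in the high range, a ratio of 176. In the low range Gzma stood at 12540, 6980, 12625 and 9666 CPM in the adult 0%, adult 5%, aged 0% and aged 5% mouse, and in the high range at 302, 0.00, 0.00 and 20.6 CPM. Single barcodes of the ranges overlapped in the adult mouse on 0% inulin, where 1 low-range barcode held 0 Gzma UMIs and 1 high-range barcode 5, and in the other 3 mice every low-range barcode held more Gzma UMIs than any high-range barcode. Prf1 was 11.3 times higher in the low range (955 against 84.8 CPM), with UMIs in 22 against 5 barcodes. The chemokine Ccl5 was 3.22 times higher there, and Gzmb 2.47 times, with UMIs in 11 of 25 against 9 of 18 barcodes. Of the 16 granule and death ligand genes, 5 were over 1.5-fold higher in the low range and 4 in the high range, beside 24.5% and 23.7% of the 5591 genes seen in at least 10% of unmixed members. Those higher in the high range were Srgn, the granule proteoglycan (1.83 times), Rab27a (1.62 times, on 6 against 5 UMIs), Tnfsf10, a death ligand on the list that set the ranges, and Gzmc, with 27 UMIs in 3 high-range barcodes, all of the adult mouse on 5% inulin, and 0 in the low range. Ctsw, a protease of cytotoxic cells, stood at 836 CPM in the low and 839 CPM in the high range.

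Of the 8 genes listed for mature NK cells, 6 were over 1.5-fold higher in the low range and 0 in the high range. The shares over all 5591 genes were 24.5% and 23.7%. Some of the 6 rested on few UMIs: Itgam had 8 UMIs in 6 low-range barcodes and 0 in the high range. Cx3cr1 had 14 UMIs in 5 low-range barcodes and 2 UMIs in the high range. Itga2, which is not on that list, had 18 UMIs in 13 of 25 low-range barcodes and 0 in the high range, at least 4.44-fold higher when 3 counts over the high range are taken as its floor. Eomes had 21 UMIs in 14 low-range barcodes and 1 UMI in the high range. Klra4 had UMIs in 9 low-range barcodes and 0 of 18 (at least 24.2-fold), and Klra8 was 8.41 times higher in the low range, with 7 of the 8 UMIs of the high range in 1 barcode. The egress receptor S1pr5 (at least 5.67-fold) and the maturation marker Klrg1 (at least 7.64-fold) were also at 0 in the high range. Klf2, a transcription factor that controls S1pr1, stood at 1101 against 37.7 CPM, and Zeb2, a factor of terminal NK maturation, at 404 against 18.8 CPM. A count of 0 in 18 barcodes allows a share of cells with a UMI of up to 16.7%.

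Of the 10 genes listed for immature NK cells, 6 were over 1.5-fold higher in the high range and 0 in the low range. The shares over all 5591 genes were 23.7% and 24.5%. One of the 6, Il7r, is also on the list that set the ranges. Another, Emb, was higher in the high range only in the aged mouse on 5% inulin (865 against 210 CPM). In the adult 0%, adult 5% and aged 0% mouse Emb stood at 0.00, 86.1 and 0.00 CPM in the high and 136, 325 and 42.8 CPM in the low range. Xcl1, the chemokine that attracts cross-presenting dendritic cells, was 9.33 times higher (3967 against 425 CPM) with UMIs in 18 of 18 barcodes, of which the single barcode of the aged mouse on 0% inulin held 152 of 421 UMIs, and Ltb, a lymphotoxin subunit, 11.6 times higher (1376 against 118 CPM), also in 18 of 18. Xcl1 had UMIs in 13 of the 25 low-range barcodes. Jaml, a junctional adhesion molecule, had UMIs in 13 high-range barcodes and 0 of 25 (at least 11.3-fold). Thy1 was 3.16 times higher and Cd27 2.48 times. Cd69, a marker of activation and of tissue residence, stood at 179 CPM in the high and 146 CPM in the low range. Of the markers that defined the range, Tmem176b had UMIs in 16 of 18 barcodes, Cxcr6 in 14, Inpp4b in 14, Tmem176a in 13 and Itga1 in 11, and Zfp683 was at 0 in all 51 members.

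The gate genes Ncr1, Klrb1c and Klre1 stood at 754, 641 and 546 CPM in the high and 1073, 571 and 948 CPM in the low range. Barcodes with little Gzma could be members only through Ncr1, Klrb1c and Klre1, so their presence in both ranges follows from the rule. Of the 20 other NK markers, all outside the rule, 10 were over 1.5-fold higher in the low range and 1 in the high range. The shares over all 5591 genes were 24.5% and 23.7%. Nkg7 stood at 1329 and 2996 CPM and Tyrobp at 1413 and 2634 CPM in the high and the low range. Among those nearer to each other, Fcer1g stood at 2365 and 2195 CPM, Klrd1 at 1197 and 1045 CPM and Tbx21 at 132 and 160 CPM. Klra9 also stood alike, at 377 and 362 CPM, in contrast to Klra8. Of the 13 T cell markers, 2 were over 1.5-fold higher in the high range, Trbc1 and Trbc2, and 2 in the low range, Trdc and Lat. Trbc2 stood at 735 CPM in the high and 244 CPM in the low range, with UMIs in 14 of 18 and 9 of 25 barcodes. Trbc1 stood at 396 and 237 CPM. Whether these beta chain transcripts were rearranged was not tested. A UMI of Eomes or Itga2 was found in 18 unmixed barcodes without Itga1 or Cxcr6, a UMI of Itga1 or Cxcr6 in 17 without Eomes or Itga2, and both kinds in 1. The label NK cells is used below for barcodes of both ranges, as the gate defines them.

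With each mouse left out in turn, Gzma, Prf1, Ccl5, Gzmb, Klra8, Klf2 and Zeb2 stayed higher in the low range and Xcl1, Ltb, Srgn, Rab27a, Thy1 and Cd27 in the high range, but several ratios rested on 1 mouse. Without the adult mouse on 0% inulin the ratio was 829 for Gzma, 56.5 for Klra8 and 35.3 for Zeb2. Without the adult mouse on 5% it was 20.4 for Prf1, 4.16 for Klra8, 5.28 for Thy1 and 1.06 for Rab27a. Without the aged mouse on 0% it was 5.57 for Xcl1 and 39.9 for Zeb2. Without the aged mouse on 5% it was 116 for Gzma, 6.35 for Prf1, 5.18 for Klra8, 10.2 for Zeb2, 1.90 for Thy1 and 4.44 for Cd27. Cd69 was then 2.36 times higher in the high range, and Tbx21 stood higher there too, at 208 against 146 CPM. Of the lower bounds, that for Itga2 was 2.88-fold without the adult mouse on 0% inulin and 2.40-fold without the aged mouse on 5%, and that for Klra4 was 13.9-fold and 14.8-fold without these mice. Without the aged mouse on 5% it was 1.60-fold for S1pr5 and 3.20-fold for Klrg1, and without the adult mouse on 5% it was 6.10-fold for Jaml.

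**Figure D3:**
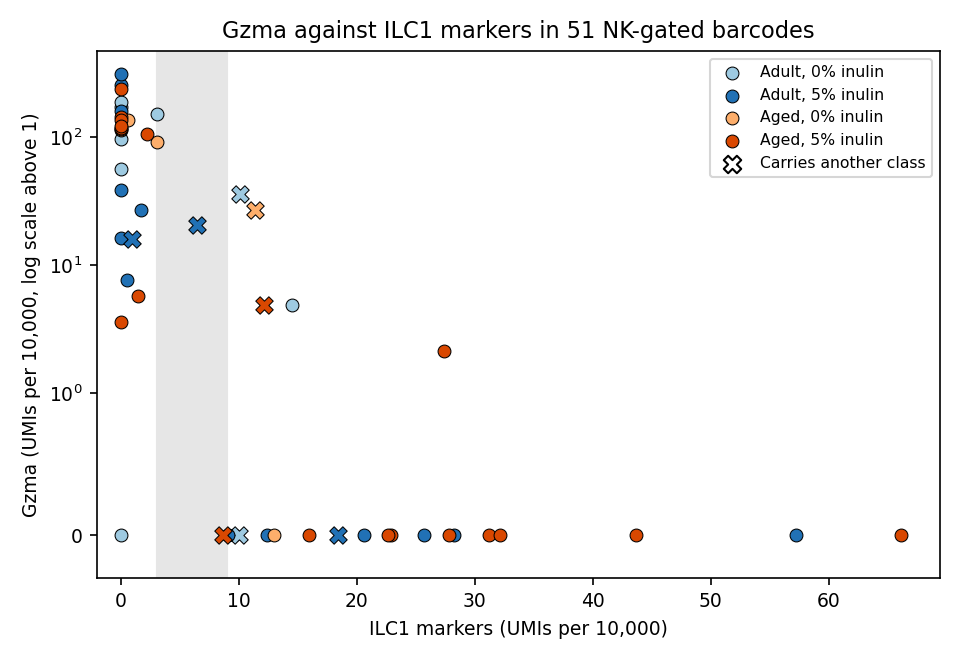
Gzma UMIs per 10,000 (vertical, linear below 1 and logarithmic above) against summed ILC1 marker UMIs per 10,000 (horizontal) in the 51 NK-gated barcodes, coloured by mouse, with crosses for the 8 that carried another class and grey shading over the gap from 3.04 to 9.10. Among unmixed barcodes, those rich in Gzma stood at the left edge and most past the gap held no Gzma. Crosses past the gap included barcodes with 110 and 71 Gzma UMIs, while others there held 26 or 0. Crosses at 6.49 and 8.70 lay within the shading, which is the gap of the unmixed barcodes.

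**Figure D4:**
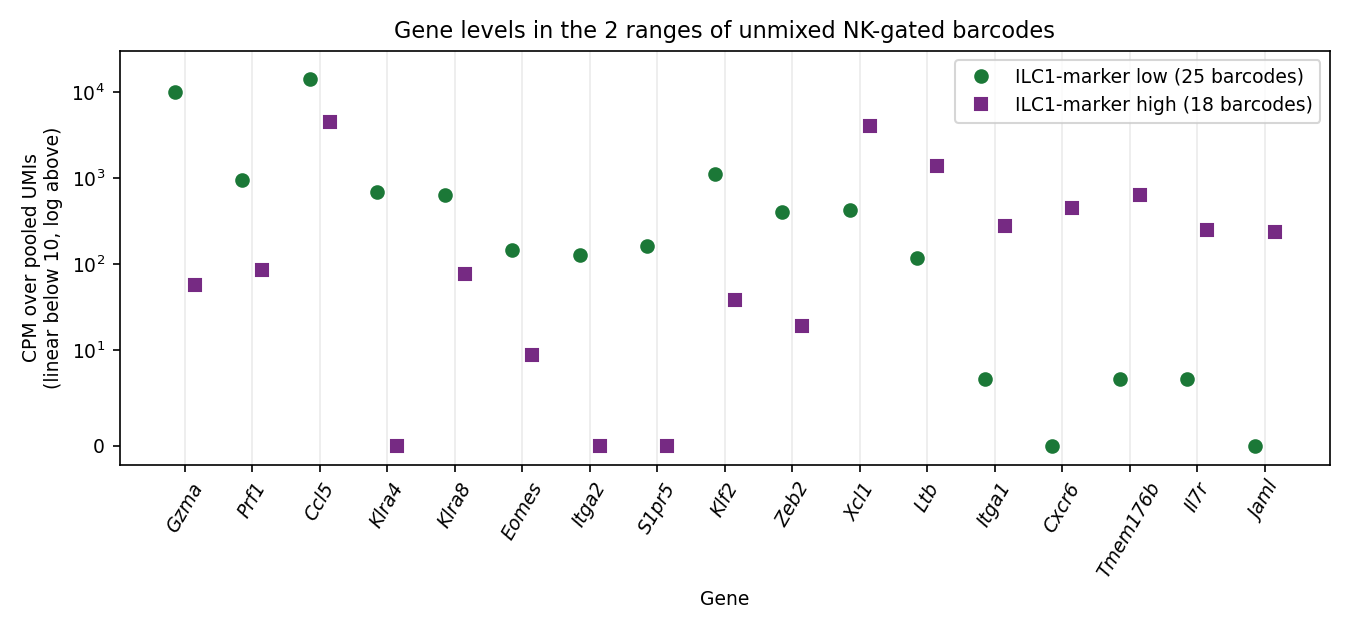
CPM over pooled UMIs (vertical, linear below 10 and logarithmic above) of 17 genes in the 25 ILC1-marker-low (circles) and 18 ILC1-marker-high (squares) unmixed NK-gated barcodes. Gzma, Prf1, Klra4, Eomes, Itga2, S1pr5, Klf2 and Zeb2 stood higher in the low range and Xcl1, Ltb, Itga1, Cxcr6, Tmem176b, Il7r and Jaml in the high range.

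Barcodes in division were found in the low range. The 8 cell division genes summed to 89.9 UMIs per 10,000 in 1 barcode of the adult mouse on 5% inulin (10 Mki67 and 38 Top2a UMIs) and to 88.2 in 1 barcode of the aged mouse on 0% (28 Mki67 and 23 Top2a UMIs), and to at most 4.55 in every other member. Both were unmixed and held Gzma, with 14 and 220 UMIs.

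The high range made up 2 of 8, 6 of 13, 1 of 4 and 9 of 18 unmixed members in the adult 0%, adult 5%, aged 0% and aged 5% mouse. These are shares of 25%, 46.2%, 25% and 50%, with exact 95% binomial intervals of 3.19% to 65.1%, 19.2% to 74.9%, 0.631% to 80.6% and 26.0% to 74.0%. The shares in the mice on 5% inulin were both above those on 0%, and the intervals overlapped in every pair of mice.

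How common NK cells were was compared between ages and diets. NK cells made up 0.127%, 0.187%, 0.0754% and 0.254% of barcodes within limits in the adult 0%, adult 5%, aged 0% and aged 5% mouse, with exact 95% binomial intervals from 0.0609% to 0.233%, 0.107% to 0.303%, 0.0245% to 0.176% and 0.155% to 0.392%. The aged mice held both the lowest and the highest share. Adult mice averaged 0.157% ± 0.0423 and aged mice 0.165% ± 0.126 (SD, n = 2 for either age), so the ages lay 0.00792 percentage points apart and overlapped (exact two-sided permutation p = 1.00). The difference was -0.0815 points without the aged mouse on 5% inulin, -0.022 without the adult mouse on 0%, 0.0973 without the aged mouse on 0% and 0.0378 without the adult mouse on 5%. It was -0.0516 points between the mice on 0% inulin and 0.0674 points between those on 5%.

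T cells of the same brains, whose difference from NK cells is tested only through the ratio below, made up 0.889%, 0.957%, 2.82% and 3.84% of barcodes, a mean 3.61 times higher in aged mice, without overlap (exact permutation p = 0.333, the smallest possible). B cells were also without overlap, with means of 0.391% in aged and 0.278% in adult mice, a ratio of 1.41 (exact permutation p = 0.333). Of NK plus T cells, NK cells made up 12.5% and 16.3% in the adult brains and 2.60% and 6.21% in the aged brains. The means were 14.4% ± 2.71 and 4.41% ± 2.55 (SD, n = 2 each), again without overlap (exact permutation p = 0.333). The difference was -9.90 percentage points on 0% inulin and -10.1 on 5%. A share of barcodes cannot tell more cells of a type from a better yield of that type, and the yield of lymphocytes in the dissociation was not measured.

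By diet, the NK share was higher on 5% inulin in both ages, with means of 0.221% ± 0.0477 against 0.101% ± 0.0365 (SD, n = 2 each), a ratio of 2.18 without overlap (exact permutation p = 0.333). Unmixed members of the ILC1-marker-low range made up 0.0762% and 0.0452% of barcodes on 0% inulin, in the adult and the aged mouse, and 0.0817% and 0.114% on 5%. Those of the high range made up 0.0254% and 0.0151% on 0% and 0.0700% and 0.114% on 5%. Red cell barcodes, a marker of remaining blood, moved the same way: they made up 0.216% and 0.467% of barcodes on 0% inulin and 0.525% and 0.636% on 5%, also without overlap, and their part in the NK difference was not tested. Granulocytes and B cells overlapped between the diets. T cells did too, at 0.889% and 2.82% on 0% inulin and 0.957% and 3.84% on 5%.

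**Figure D5:**
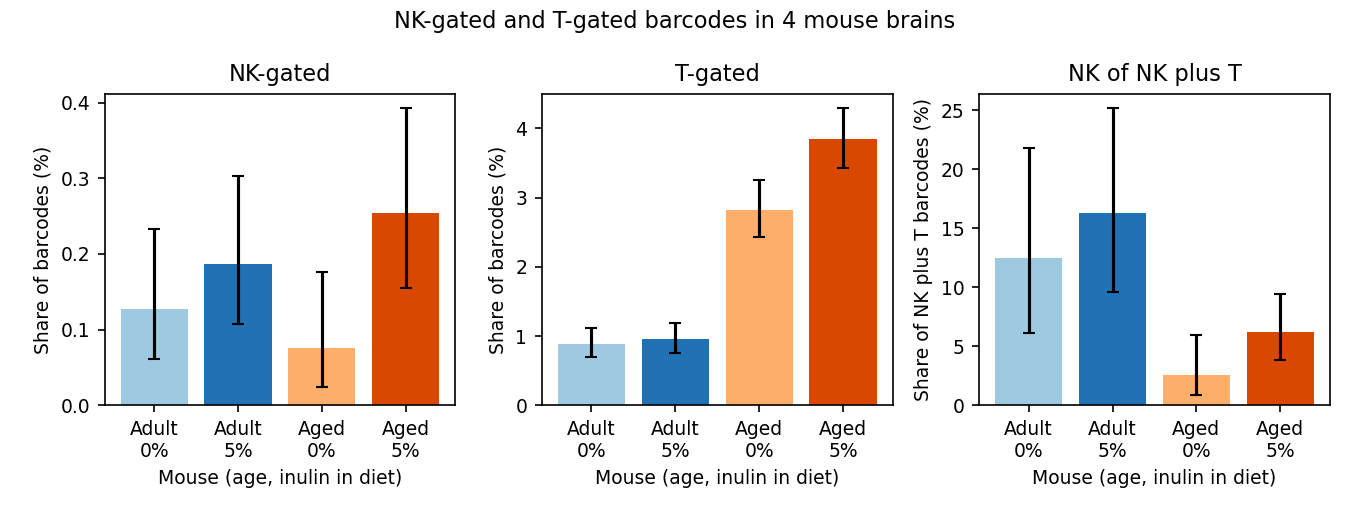
Share of barcodes within limits that were NK-gated (left) or T-gated (middle), and NK-gated barcodes as a share of NK plus T (right), in percent, for each of the 4 mice, with exact 95% binomial intervals as error bars. T-gated shares were higher in both aged mice, while NK-gated shares of aged mice were both the lowest and the highest of the 4.

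Expression in NK cells was compared between ages on the UMIs summed per mouse. With edgeR's quasi-likelihood test 0 of 1840 genes tested passed both thresholds, which were 0.05 for the adjusted p and 1.5 for the fold (0%, the background for every list below), with 113 genes at an unadjusted p under 0.05, where DESeq2 called 1, Slc1a2. The 10 genes with the smallest p, none of them called, were Aldoc, Slc1a2, Bcan, Plpp3, Dclk1, Gria2, Slc1a3, Htra1, Gpr37l1 and Cspg5, which are known from astrocytes, neural progenitors or neurons and were all lower in aged mice. Slc1a2, the glial glutamate transporter, had 62, 87, 0 and 5 UMIs in the adult 0%, adult 5%, aged 0% and aged 5% mouse, and Aldoc 26, 43, 1 and 4. The 8 mixed barcodes held between 91.9% and 100% of the UMIs of each of the 10. Without them, Slc1a2 had 7, 1, 0 and 4 UMIs and none of the 10 passed the filter on low counts. The number of calls rested on single mice and barcodes: edgeR gave 131 without the adult mouse on 0% inulin, 13 without the adult mouse on 5%, 39 without the aged mouse on 0% and 0 without the aged mouse on 5%, and 24 without the 3 members above 22005 UMIs.

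In the 43 unmixed members 0 of 938 genes were called by age with edgeR (0%), and 22 had an unadjusted p under 0.05. The summed level of the 20 other NK markers was 29482, 21883, 28158 and 26192 CPM, so the adult and aged mice overlapped. The receptor Klra8, named after its values were seen, had 26 and 51 UMIs in the adult mice and 0 and 22 in the aged mice (565, 654, 0.00 and 229 CPM), without overlap (14.3% of all 938 genes were lower in both aged mice than in both adult mice), and with all 51 members its log2 fold change was -1.90 ± 0.45 (SE) at an edgeR adjusted p of 0.497 (0.0400 with no filter on low counts, 0.00333 without the adult mouse on 0% inulin, and 0.175 to 1.00 under the other alternatives). Ccr2, a receptor for blood-to-tissue migration that was also named after its values were seen, stood at 348, 398, 102 and 177 CPM, also without overlap and not called.

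The lists of NK genes showed no call in either direction, and the values here are of unmixed members unless all 51 are named. A gene can pass the filter on low counts through the mice in which it is high, so sums over whole lists are given. Of the 11 Ly49 genes 4 passed the filter. The Ly49 family summed to 3327, 1385, 474 and 1331 CPM, highest in the adult mouse on 0% inulin and lowest in the aged mouse on the same diet. Of 14 MHC class I genes 11 were tested, with 5 higher in both aged mice than in both adult mice, beside 16.3% of all genes tested, and a median of 0.27. With all 51 members 2 of the 11 were higher, beside 19.6% of all 1840 genes, with a median of 0.07. Of 16 granule and death ligand genes 9 were tested with a median of 0.26 (0.05 with all 51 members), and of 10 heat shock genes 8 with a median of -0.14 (9 with a median of -0.40). Of 16 interferon response genes only 1 passed the filter (4 with all 51 members). The choroid plexus list, led by Ttr, stood at 7371 and 5580 CPM in adult and 3215 and 4317 CPM in aged mice.

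By diet, edgeR called 0 of 1840 genes (0%), with 52 at an unadjusted p under 0.05, and DESeq2 called 3, Acta2, Gkn3 and Tm4sf1, all lower on 5% inulin. Among the 10 genes with the smallest p, none called by edgeR, 6 were vessel wall genes, Tpm2, Tagln, Myl9, Gkn3, Tm4sf1 and Acta2. Acta2, smooth muscle actin, had 11 and 54 UMIs in the mice on 0% inulin and 1 and 2 in those on 5%. The mixed barcodes held 93.0% to 98.8% of the UMIs of these 6.

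The other 4 were Gzma, Tmem176a, Slc38a2 and Klrb1a. In unmixed members Gzma, a gene of the rule given as a description, stood at 8132 and 9984 CPM on 0% inulin and 3861 and 4795 CPM on 5%, in the adult and the aged mouse. Tmem176a, a membrane protein on the ILC1 list, had 0 and 2 UMIs on 0% inulin and 18 and 30 on 5%, and Tmem176b, named after its values were seen, had 2 and 2 against 17 and 47. In the fit of the 43 unmixed members Tmem176b had the smallest p, with a log2 fold change of 2.72 ± 0.66 (SE) and an edgeR adjusted p of 0.445, beside 1.33 ± 0.34 and 0.999 with all 51 members. The amino acid transporter Slc38a2 stood at 130 and 203 CPM against 385 and 458 CPM.

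These fits called 0 of 938 genes by diet in unmixed members (0%), with 38 at an unadjusted p under 0.05. Of the 9 ILC1 markers 3 passed the filter on low counts in unmixed members and 5 with all 51. A gene can pass through the mice in which it is high, so no count or median over those that passed is given. The list as a whole summed to 478 and 338 CPM on 0% inulin and 1129 and 1685 CPM on 5% in unmixed members. With all 51 members the sums lay closer, at 748 and 716 CPM on 0% and 1088 and 1445 CPM on 5%. The ILC1-marker-high range held 49 of the 50 Tmem176a and 67 of the 68 Tmem176b UMIs and 6 of the 1431 Gzma UMIs of unmixed members, and it made up 25% of them in both mice on 0% inulin and 46.2% and 50% in those on 5%. Within the high range Tmem176b stood at 121 and 324 CPM on 0% inulin and 488 and 948 CPM on 5%, where the mice on 0% gave only 2 barcodes and 1. The part of the range shares in the diet differences was not tested. Of 13 immediate early genes, which answer to stimulation and also to dissociation, 7 passed the filter, and the same limit holds. The list summed to 2174 and 3384 CPM on 0% inulin and 5054 and 5898 CPM on 5%. With all 51 members the sums were 2127 and 3489 CPM against 4174 and 4733 CPM. Of the 13, 6 were over 1.5-fold higher in the high range and 1, Ier2, in the low range, beside 23.7% and 24.5% of the 5591 genes. Junb, named after its values were seen, stood at 457 and 812 CPM on 0% inulin and at 1642 and 1363 CPM on 5%, not called.

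The age effect in NK cells was set against that in T cells with a cell type by age term and the mouse as a block. EdgeR called 14 of 6651 genes (0.21%), 2 higher and 12 lower in aged NK cells relative to T cells. The lower genes (Mt3, Ank2, Gria2, Gpr37l1, Slc4a4, F3, Ptprz1, Bcan, Mt1, Gja1, Gm3764 and Cspg5) are mostly astrocyte transcripts, and the higher ones, H2-Ab1 and H2-Aa, encode MHC class II chains. The mixed barcodes held 76.5% to 100% of the UMIs of these 14 genes, and 57 of the 58 H2-Aa UMIs came from the aged mouse on 5% inulin. Leaving out 1 mouse at a time gave between 23 and 95 calls, and without that mouse the value for H2-Aa changed sign, from 7.28 to -0.76 on the log2 scale. Without mixed NK and T barcodes edgeR called 1 of 4850 genes (0.0206%), the interferon-induced Ifi27l2a (named after its values were seen), and 0 of the 14. Ifi27l2a had 13 UMIs in the adult mouse on 5% inulin and 0 in the other 3, and all 13 came from 1 barcode.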

How the data were processed

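Whole-brain cells of 4 mice were sequenced on the 10x Genomics platform with 3′ chemistry. The deposited files hold UMI counts per gene and barcode for 55573 genes, which the authors made with Cell Ranger 3.1.0 and GRCm38 per the submitters' processing notes. Gene positions came from GENCODE (GRCm38). The members and gene lists were chosen with earlier results of these data known.

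Barcodes needed at least 1000 UMIs, and the mt- limit was the median share plus 3 median absolute deviations. No upper UMI limit was set in the main analysis. UMI counts of members were summed per mouse and tested with edgeR 4.0.16 (filterByExpr, TMM, quasi-likelihood fit, Benjamini-Hochberg adjustment over all genes tested) under R 4.3.3. Calls needed an adjusted p below 0.05 together with a fold above 1.5, as in the study's methods. Diets were pooled for age and ages for diet. For shares, mice were permuted exactly and two-sided (scipy 1.17.1). Replicate numbers 1 and 2 were given within each age and went with 0% and 5% inulin, so they match mice only by diet. Mice were matched by diet or age only in the fits with the other factor as a covariate. Scrublet (scanpy 1.11.5) was run per mouse and its calls were kept in the main analysis. The fits were tested on simulated sums with 200 changed genes.

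Named genes were those called, or the 10 with the smallest p where none was called, the rule genes, the leading genes by fold over T cells or over all other barcodes (10 CPM added, at least 10% of members), and the list members of highest level, with exceptions marked. Alternatives were DESeq2 1.42.0, no scaling factors, no filter, other gates (3 or 6 gate UMIs, 2 UMIs without Gzma, no Cd3 UMI, 2000 UMIs per barcode, an upper limit of 22005 UMIs, a C1q limit of 10), no Scrublet calls, thinning to 1000 UMIs, a covariate for the other factor and leaving out each mouse. Leaving out the mixed barcodes was added after the data were seen. Protein sequences were not used here. UMI intervals and floors of 3 counts cover counting error only.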

Additional observations from a re-analysis of the deposited data

Results flagged for a closer look

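The age effect in NK cells differed from that in T cells by the cell type by age term for 14 genes (edgeR, adjusted p between 0.0122 and 0.037). On the log2 scale the differences were 11.2 for H2-Ab1 and 7.28 for H2-Aa, and -4.45 for Mt3, -7.22 for Ank2, -10.9 for Gria2, -6.21 for Gpr37l1, -6.20 for Slc4a4, -5.13 for F3, -10.6 for Ptprz1, -5.92 for Bcan, -3.12 for Mt1, -4.49 for Gja1, -9.73 for Gm3764 and -5.69 for Cspg5. Where a group held no UMI these fitted values depend on the prior count and are no bounds. The mixed barcodes held over 90% of the UMIs of 11 of the 14 genes, and of the 14 only Mt3 and Mt1 passed the filter without those barcodes, at -2.85 and -2.99 with edgeR adjusted p of 0.479 and 0.549. The largest share of a gene's UMIs in 1 barcode was 98.3%, for H2-Aa.

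The age difference in NK share had opposite signs on the 2 diets, -0.0516 percentage points on 0% inulin and 0.0674 on 5%. Each value compares 1 mouse with 1 mouse, and the difference between them was not tested.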

How the results depend on the processing

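The direction of the diet difference in NK share and of the age difference in the NK share of NK plus T cells was kept under all 13 alternatives each (0.077 to 0.153 and -11.9 to -8.09 percentage points). The age difference in NK share was kept under 11 of 13, and leaving out 1 mouse moved it between -0.0815 and 0.0973 points. For genes called by age, 0 in the main analysis, DESeq2 gave 1, no filter on low counts 61, the upper UMI limit 24 and leaving out 1 mouse 0 to 131. For diet, also 0, the counts were 3 with DESeq2, 22 without a filter, 1 (Tubb5, named after its values were seen) after thinning and 0 to 2 without 1 mouse. For the NK against T difference, 14 in the main analysis, they were 2 with DESeq2 (Gria2 and Mt3), 57 without a filter, 33 with no Cd3 UMI, 37 with the upper UMI limit, 1 without mixed barcodes, 0 with 3 gate UMIs, 0 without Gzma in the gate, 0 without Scrublet calls, 0 after thinning and 23 to 95 without 1 mouse. The cause of these shifts was not tested. Of 36 values for single genes under 510 alternatives in all, 390 kept direction and call, 62 lost and 57 gained a call, and 1 changed sign (H2-Aa, -0.757 to 7.86 over the fits without 1 mouse). In those fits an arm of 1 mouse is assumed to vary like the others. Replicate numbers 1 and 2 recur in both ages only in step with diet, 0% and 5% inulin. Matching mice by the other factor as a covariate gave 0 calls by age and 0 by diet (edgeR), with 97 and 62 genes at an unadjusted p under 0.05.

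The limits are few mice and few cells. Each group held 2 mice of different diet or age, and the NK cells of a mouse numbered 5 to 20. The largest barcode held 16.2% to 47.1% of a mouse's member UMIs, so sums rest on few cells. A missed threshold does not show that ages or diets were alike.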
